A study of Mus musculus with 4 samples.

Results

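The genes described here are 36 cell cycle genes, measured by their unique molecular identifiers (UMIs, counts of single captured transcripts) in leukocytes of the mouse liver. They were taken by name from the 32285 genes of the matrices: 14 act in DNA replication and S phase, 19 in G2 and mitosis, and 3 are the tubulin binder Stmn1, the chromatin protein Hmgb2 and the condensin subunit Smc2. All 36 had at least 1 UMI in the 1593 cells kept, and each cell was described by how many of the 36 it held. The series has 4 droplet single-cell libraries of CD45+ cells from the healthy liver of PA-GFP C57BL/6 mice, which carry a photoactivatable green fluorescent protein, all after photoactivation. Replicates 1 and 2 of the PV group came from the portal vein zone and replicates 1 and 2 of the CV group from the central vein zone. The sources used here give neither the age of the animals nor the promoter of the transgene. They also do not tie each library to a mouse of its own; a p-value therefore reflects how much libraries vary, and that variation may be technical.

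A dividing cell copies its DNA in S phase and segregates it in mitosis, and each step switches on its own transcripts. S phase genes encode the helicase that opens the DNA (Mcm2 to Mcm7), the sliding clamp of the polymerases (Pcna) and the enzymes that make nucleotides (Rrm1, Rrm2, Tyms, Tk1); G2 and mitosis genes encode the mitotic kinases and cyclins (Cdk1, Ccnb1, Plk1, Aurkb) and parts of centromere, spindle and chromosome arms (Cenpf, Kif11, Top2a). In the liver, mature neutrophils no longer divide, Kupffer cells, the resident macrophages, are known to renew themselves locally, and conventional dendritic cells descend from precursors that still divide.

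Promoters of cell cycle genes are known to hold short shared motifs: TTTGAA, the CHR element bound in G2 and mitosis genes by the DREAM and MuvB complexes; CCAAT, bound by NF-Y; and the E2F motif, searched as TTCCCGC or TTCGCGC or TTGCCGC or TTGGCGC. The 150 bases before the RefSeq start on GRCm38.p6 were searched on both strands in the 30 members with a promoter in the table. TTTGAA stood in 6 of 16 G2 and mitosis promoters and 1 of 12 S phase promoters, against 9.07% of all 32851 promoters in the table. CCAAT stood in 14 of 16 and 8 of 12, against 24.5%. The E2F motif stood in 3 of 16 and 4 of 12, against 5.47%. Both TTTGAA and CCAAT stood in 6 of 16 and 0 of 12, against 2.24%. The promoters below are shown because 5 of these 6 G2 and mitosis genes and 2 S phase genes (Hells, Rrm1) carry the contrast; capitals mark matches in either direction, so ATTGG is CCAAT and TTCAAA is TTTGAA read on the other strand, and a match is only a match of letters. They lie at chr10:69352913-69353062 on the minus strand (Cdk1), chr11:99024190-99024339 minus (Top2a), chr7:135716380-135716529 minus (Mki67), chr2:164769779-164769928 plus (Ube2c), chr4:118437344-118437493 minus (Cdc20), chr19:38930840-38930989 plus (Hells) and chr7:102441545-102441694 plus (Rrm1).
Cdk1: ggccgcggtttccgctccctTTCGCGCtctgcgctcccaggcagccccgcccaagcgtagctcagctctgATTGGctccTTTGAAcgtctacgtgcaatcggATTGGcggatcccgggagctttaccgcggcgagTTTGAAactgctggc
Top2a: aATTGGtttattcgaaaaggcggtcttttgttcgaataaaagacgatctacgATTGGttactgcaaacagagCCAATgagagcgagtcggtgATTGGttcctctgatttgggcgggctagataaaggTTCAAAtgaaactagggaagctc
Mki67: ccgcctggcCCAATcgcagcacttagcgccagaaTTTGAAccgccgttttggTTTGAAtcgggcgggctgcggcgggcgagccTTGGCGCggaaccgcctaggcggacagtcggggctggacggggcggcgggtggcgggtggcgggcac
Ube2c: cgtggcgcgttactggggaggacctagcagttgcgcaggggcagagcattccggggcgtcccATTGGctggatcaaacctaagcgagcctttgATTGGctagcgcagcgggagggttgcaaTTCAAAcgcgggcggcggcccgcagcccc
Cdc20: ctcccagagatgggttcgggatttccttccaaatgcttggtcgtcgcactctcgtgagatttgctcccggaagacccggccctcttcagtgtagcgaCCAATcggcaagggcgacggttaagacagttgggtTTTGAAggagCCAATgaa
Hells: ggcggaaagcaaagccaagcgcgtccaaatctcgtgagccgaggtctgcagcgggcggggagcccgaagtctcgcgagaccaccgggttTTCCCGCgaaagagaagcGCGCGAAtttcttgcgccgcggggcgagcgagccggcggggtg
Rrm1: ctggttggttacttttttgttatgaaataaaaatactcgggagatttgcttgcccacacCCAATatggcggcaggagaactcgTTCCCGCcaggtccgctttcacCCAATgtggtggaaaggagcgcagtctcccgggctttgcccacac

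The libraries held 588 to 755 barcodes and 2741760 to 4373488 UMIs each, of which 333 to 512 barcodes were kept, with a median of 5369 to 6317.5 UMIs. Ptprc, which encodes CD45, had a UMI in 93.9% of the kept cells. By 8 markers per class, 728 cells were gated as T cells, 267 as macrophages (226 of them by Kupffer cell genes), 155 as B cells, 101 as NK cells or ILC1, 90 as cDC1 (type 1 conventional dendritic cells), 86 as neutrophils and 31 as pDC (plasmacytoid dendritic cells). A further 29 were gated as cDC2, 14 as sinusoidal endothelial cells, 13 as monocytes and 9 as plasma cells, and 70 stayed ungated. No gate used a cell cycle gene.

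Libraries shared cell barcodes, and this touches the cells that hold many of the genes most. Of 1939 distinct barcodes, 282 were in more than 1 library and 152 in all 4; a barcode was kept only in the library holding at least 70% of its UMIs, so that no kept barcode counts in 2 libraries, and 215 kept cells have a barcode also found elsewhere. Of the 64 cells with 10 or more of the 36 genes, 42 were such cells, and their own library held 79.1% to 95.3% of the barcode's UMIs. The other 22 had a barcode of 1 library only. By class, 16 of the 22 T cells, 16 of the 24 cDC1 and 3 of the 10 macrophages with 10 or more genes had a shared barcode. These cells were also deep: T cells with a shared barcode had a median of 17818 UMIs against 6083 in the other T cells, and cDC1 26434 against 13263. Which zone such a cell came from rests on this rule alone, so the results that depend on them are given with and without them.

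The 36 genes were spread thinly over most cells and concentrated in a few. Of 1593 cells, 106 held none, 831 held 1 to 2, 454 held 3 to 4, 115 held 5 to 6, 23 held 7 to 9 and 64 (4.02%) held 10 or more. The highest cell held 35 of 36, and 32 cells held 20 or more. These 64 cells had a median of 20691.5 UMIs, against 5753 in the others, and held 60.1% of all UMIs of the 36 genes. Just below the limit of 10, 11 cells held 8 or 9 genes, and just above it 10 cells held 10 or 11. Without shared barcodes, 22 of 1378 cells (1.60%, exact 95% interval 1.003% to 2.41%) held 10 or more. The plot of genes per cell against depth shows both groups of cells.

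**Figure D1:**
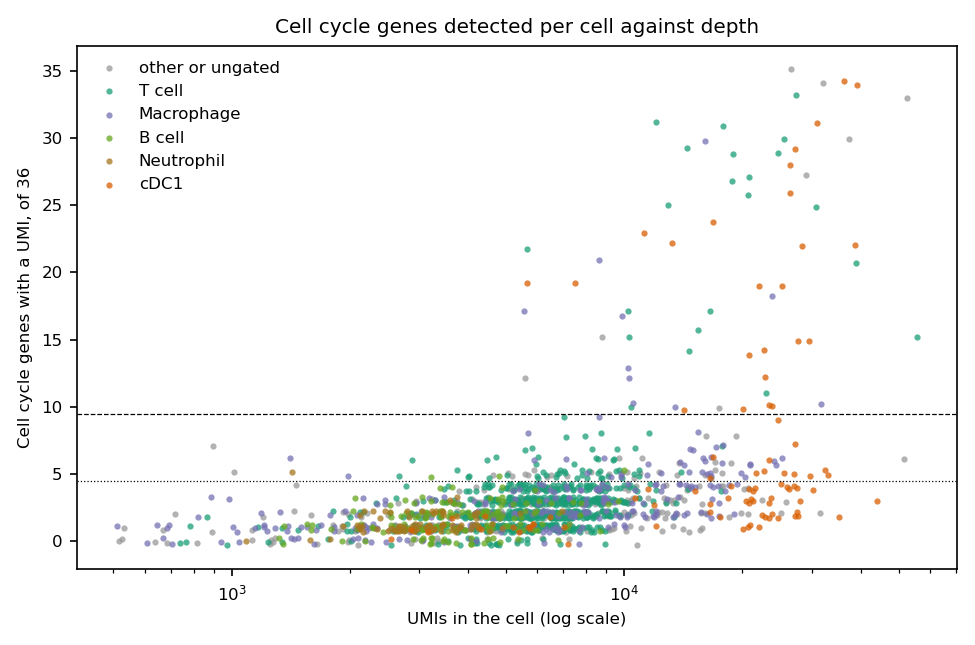
Each point is 1 of the 1593 kept cells, with its UMIs on a log axis and the number of the 36 cell cycle genes it held on the other axis; colours mark the gated class, and the lines mark 5 and 10 genes. Most cells lie at 0 to 4 genes, while 64 cells lie at 10 or more, most of them cDC1 and T cells. The cells with more genes are deeper, with a median of 3142.5 UMIs at 0 genes and 20691.5 at 10 or more.

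Cells with 5 to 9 of the genes held mainly S phase genes, and those with 10 or more held genes of both phases. The 138 cells with 5 to 9 genes had a median of 3 S phase genes and 1 G2 and mitosis gene, and 123 of them had at most 1 of the latter. Of these 138 cells, 4 had 3 or more G2 and mitosis genes, whereas 44 of the 64 cells with 10 or more did. The count of 5 or more therefore takes in many cells with a few replication genes at moderate depth, and the counts of 10 or more and of 3 or more G2 and mitosis genes are given beside it.

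Among the 5 classes with 10 cells or more in each library, cDC1 had the highest share of cells holding several of the genes. In PV replicates 1 and 2 and CV replicates 1 and 2, 11 of 37, 12 of 26, 7 of 15 and 6 of 12 cDC1 held 5 or more, a mean share of 43.1% ± 9.10 (SD, n = 4 libraries). For 10 or more, the counts were 6 of 37, 8 of 26, 6 of 15 and 4 of 12, or 30.1% ± 10.0 (SD, n = 4). With the kept cells, the cDC1 share was above that of T cells, macrophages, B cells and neutrophils in 4 of 4 libraries at both limits. At 3 or more G2 and mitosis genes it was 23.5% ± 9.45 (SD, n = 4), with 4, 6, 4 and 4 cells. Depth differs between classes: cDC1 had a median of 21833.5 UMIs, T cells 6177.5, macrophages 6687, B cells 3652 and neutrophils 3131. After each cell was thinned to 2000 UMIs, 17 of 90 cDC1 still held 5 or more of the genes, or 21.8% ± 9.29 per library (SD, n = 4), above the other 4 classes in 4 of 4 libraries. Among cells of 10000 UMIs or more with a shared barcode, however, 16 of 47 cDC1 held 10 or more genes, below 16 of 18 T cells. Among cells of that depth without one, the counts were 6 of 27 cDC1 and 5 of 28 T cells. Without shared barcodes, 8 of 43 cDC1 held 10 or more (18.6%, exact 95% interval 8.39% to 33.4%), as 1 of 14, 5 of 18, 1 of 5 and 1 of 6 in the same order of libraries, and stayed above the other 4 classes in each. At 5 or more genes this order was lost in PV replicate 1 without shared barcodes, where 1 of 14 cDC1 (7.14%) passed, against 8.85% of T cells and 7.69% of macrophages. The other 3 libraries had 7 of 18, 1 of 5 and 3 of 6 cDC1 at that limit and kept cDC1 first of the 5 classes.

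T cells, the most numerous class, had a lower share of cells with many of the genes, and these were deep cells. In the same order of libraries, 21 of 199, 24 of 203, 17 of 166 and 14 of 160 T cells held 5 or more of the genes, or 10.3% ± 1.26 (SD, n = 4). For 10 or more, the counts were 6, 8, 4 and 4, or 2.97% ± 0.70 (SD, n = 4), and for 3 or more G2 and mitosis genes 7, 4, 2 and 4. The 22 T cells with 10 or more had a median of 18345.5 UMIs against 6098 in the other T cells. After thinning, 22 of 712 T cells (3.09%) held 5 or more genes. Most of these cells carried shared barcodes: 16 of 23 T cells with a shared barcode held 10 or more genes, against 6 of the 705 others (0.851%, exact 95% interval 0.313% to 1.84%). At 10000 UMIs or more, the counts were 16 of 18 against 5 of 28 T cells. For cDC1 of that depth they were 16 of 47 against 6 of 27, and for macrophages 3 of 56 against 4 of 23. Part of the T cell share thus rests on barcodes that more than 1 library holds, and the origin of these cells was not tested.

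Macrophages, most of which lay in the Kupffer cell gate, held several of the genes at a share that varied between libraries. In the same order of libraries, 1 of 17, 25 of 134, 13 of 67 and 8 of 49 macrophages held 5 or more of the genes, or 15.1% ± 6.26 (SD, n = 4). Of all 267, 10 (3.75%, exact 95% interval 1.81% to 6.78%) held 10 or more, as 0, 5, 2 and 3 in the 4 libraries, and all 10 had at least 2 Kupffer cell genes, as did 226 of all 267. Clec4f, Vsig4 and Cd5l are both Kupffer cell genes and markers of the macrophage gate. A cell with most of the gate markers therefore passes the Kupffer limit by construction. The share with 10 or more was 7 of 204 without shared barcodes (3.43%, exact 95% interval 1.39% to 6.94%). T cells had the higher share of cells with 10 or more genes in 2 of 4 libraries and macrophages in the other 2. At 5 or more genes macrophages had the higher share in 3 of 4 libraries, but after thinning T cells did in 3 of 4. The order of these 2 classes thus depended on the limit and on depth, and their difference was not tested.

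The remaining classes had few such cells or none, and some had few cells in all. Of the NK cells or ILC1, 1 of 101 held 10 or more genes, with 10 G2 and mitosis genes and 0 S phase genes among its 12. The counts were 2 of 9 plasma cells, 1 of 29 cDC2 and 1 of 31 pDC. The 2 plasma cells still held 6 and 12 of the genes after thinning, and 9 cells are too few to rank this class against cDC1. Among 155 B cells and 86 neutrophils none held 10 or more, which, taken as 3 counts of the total, allows shares of up to 1.94% and 3.49%; none held 3 or more G2 and mitosis genes either. Neutrophils no longer divide and are given for comparison, at the lowest median depth of the 5 classes above: 1 of 86 held 5 or more genes, and 0 of 81 did after thinning. The level of free transcripts was not estimated. Intervals and limits cover counting error only. The plot of shares by class shows these values per library.

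**Figure D2:**
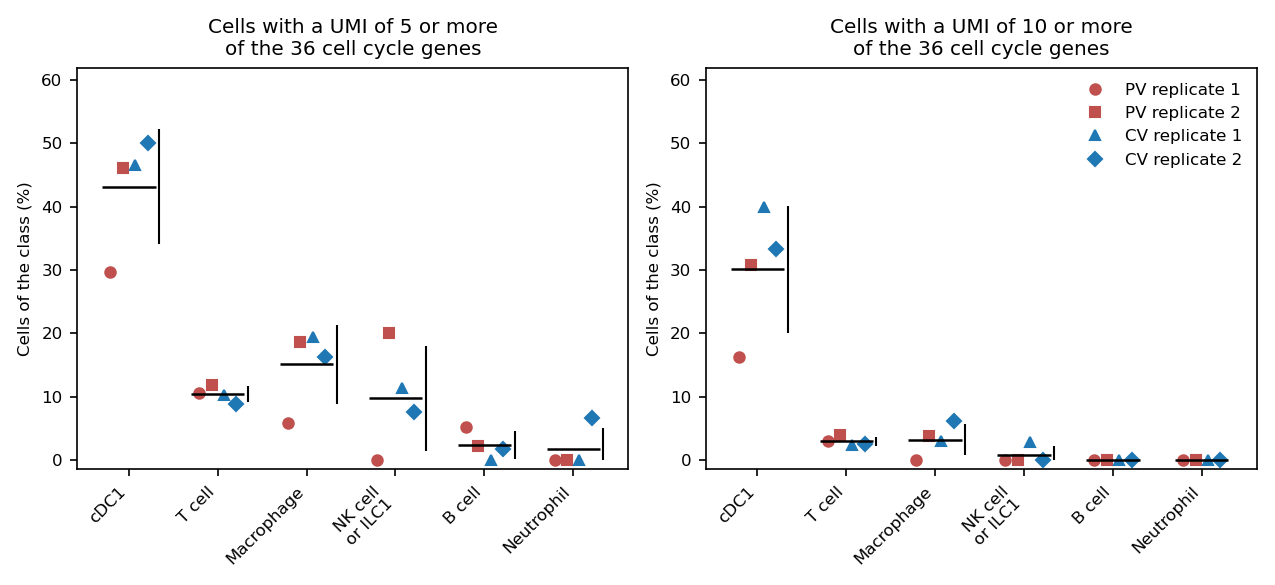
Each panel shows, for each gated class, the percent of its cells past the stated limit; points are the 4 libraries, coloured by zone. The cDC1 points lie above those of T cells, macrophages, B cells and neutrophils in every library.

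Most cells with 10 or more genes held genes of both S phase and mitosis. With at least 3 genes of a phase taken as holding it, 43 of the 64 cells (67.2%) held both S phase and G2 and mitosis genes, 20 held S phase genes alone, and 1 held G2 and mitosis genes alone. Among the 24 cDC1, 18 held both and 6 S phase genes alone; among the 22 T cells, 15 and 7; among the 10 macrophages, 5 and 5. The median was 10.5 S phase and 6.5 G2 and mitosis genes in cDC1, 11 and 11 in T cells, and 8 and 2.5 in macrophages. At 10 or more G2 and mitosis genes there were 11 T cells, 8 cDC1 and 2 macrophages. Of these T cells, macrophages and cDC1, none held 3 or more G2 and mitosis genes without 3 S phase genes. Detection depends on depth, so these splits are of detected genes and not phase calls.

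**Figure D3:**
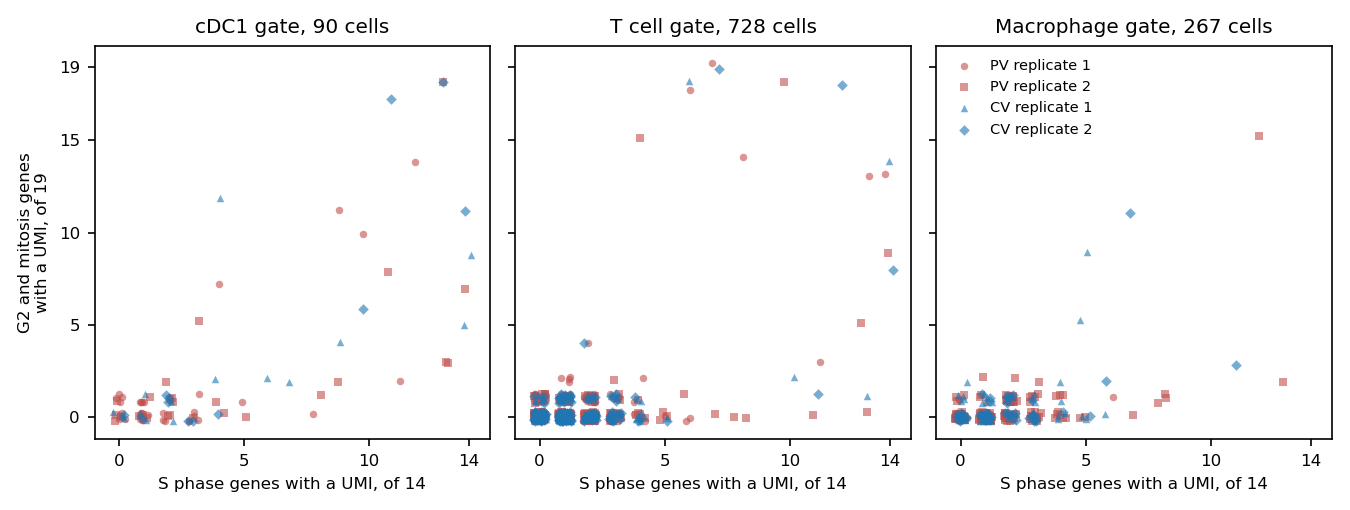
Each panel shows the cells of 1 class, with the number of S phase genes (of 14) on one axis and of G2 and mitosis genes (of 19) on the other; points are slightly offset to separate them, and colours and symbols mark the 4 libraries. Cells with many G2 and mitosis genes also hold S phase genes, and a separate set holds S phase genes with few or none of the others.

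Cells were gated by the class markers, so each class holds its own by construction, and the levels here only describe them. In cDC1 the summed cDC1 markers had a median of 39.0 per 10000 UMIs in the 24 cells, against 54.4 in the others, and the T cell, macrophage, B cell and neutrophil markers had a median of 0 in both. Other lists were not at 0: the monocyte markers had a median of 5.14 against 3.98 and the pDC markers 2.74 against 1.97. In T cells the T cell markers had a median of 48.8 against 62.2, and in macrophages the macrophage markers 243 against 262. At least 3 markers of a second class were detected in 11 of the 24 cDC1, 12 of the 22 T cells and 7 of the 10 macrophages; doublet calling marked 1 of these T cells and none of the cDC1 or macrophages. No such count was made for the other cells of these classes, which were shallower. Their median UMIs were 21138 in cDC1, 6098 in T cells and 6533 in macrophages, against 23576.5, 18345.5 and 10409. The part of doublets and of depth in these counts was not tested further.

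The 22 T cells with 10 or more of the genes were described by genes of T cell subsets. Cxcr6, a chemokine receptor of liver resident T cells, had a UMI in 20 of the 22 (90.9%) and in 596 of the other 706 (84.4%). Cd4 had a UMI in 7 of 22, and Cd8a or Cd8b1 in 2 of 22, against 26.9% and 8.22% of the others. Klrb1c, which encodes NK1.1, had a UMI in 17 of 22 against 64.0%, and Foxp3, the regulatory T cell factor, in 1 of 22. Il2ra, the interleukin-2 receptor alpha chain, had a UMI in 13 of 22 against 33.3%, but in 2 of 22 against 14.1% after thinning. Cd44 had a UMI in 19 of 22 against 54.1%, and in 8 of 22 against 25.9% after thinning. After thinning the order turned for Cxcr6 (54.5% against 66.5%), Klrb1c (22.7% against 39.0%) and Cd4 (9.09% against 11.6%). Both Cd4 and Cd8 transcripts were thus present among the 22, and since these are the deeper cells the unthinned shares read high.

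The S phase genes differed in how far their UMIs lay in the 64 cells with 10 or more genes, which were chosen on these genes, so the values describe them only. Pcna had a UMI in 597 cells and in 31.8% of the 1391 cells with under 5 genes, and 34.3% of its UMIs lay in the 64 cells. Rrm2, the regulated subunit of ribonucleotide reductase, and Pclaf, a partner of Pcna, appeared in 0.431% and 1.01% of these cells, and 94.5% and 95.1% of their UMIs lay in the 64 cells. The 6 Mcm genes lay between, with 37.9% (Mcm2) to 72.4% (Mcm5) of their UMIs in the 64 cells.

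Most genes of G2 and mitosis had few UMIs outside the same 64 cells. The share of UMIs in the 64 cells was 100% for the checkpoint kinase gene Bub1, 99.1% for the spindle protein gene Nusap1, 97.2% for the survivin gene Birc5 and 95.4% for the topoisomerase gene Top2a. The lowest were Cenpa, a centromere histone, at 46.8%, and the kinase gene Aurka, at 82.4%. Cenpa had a UMI in 10.4% of the cells with under 5 genes and in 16.1% of B cells. Hmgb2, a chromatin protein, was present in 77% of the cells with under 5 genes, and Stmn1 in 3.45%.

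Hmgb2 alone carried most of the signal of the 36 genes in neutrophils. Per 10000 UMIs of the class, its level was 11.8, 21.2, 12.9 and 14.7 in neutrophils in PV replicates 1 and 2 and CV replicates 1 and 2. It was 9.97, 7.39, 9.04 and 8.46 in T cells and 2.28, 3.38, 2.97 and 3.17 in macrophages. These 3 classes did not overlap. The cDC1, at 5.09, 9.04, 7.75 and 18.4, overlapped both T cells and neutrophils, and B cells had 2.57 to 4.04. The 14 S phase genes together had 0.259 to 1.21 UMIs per 10000 in neutrophils, against 12.8 to 22.3 for all 36 genes. Cenpa had 0.252, 0.777, 0.258 and 1.21 UMIs per 10000 in neutrophils and 0.584, 0.706, 0.456 and 0.449 in B cells. Cenpa was thus also detected in these classes, but the neutrophil values rest on only 2, 3, 3 and 5 UMIs. T cells had 0.524, 0.291, 0.541 and 0.444 per 10000, and cDC1 0.195, 0.210, 0.174 and 1.11. Neutrophils were above T cells in replicate 2 of each zone and below them in replicate 1 of each. B cells were below T cells in CV replicate 1 only.

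In cDC1 the summed level of the genes varied more between libraries than in T cells. The 36 genes together had 11.5, 26.1, 22.1 and 54.5 UMIs per 10000 in cDC1, in the order of libraries above, and 22.2, 15.5, 18.3 and 19.6 in T cells. The G2 and mitosis genes alone had 2.37, 5.51, 3.41 and 16.3 in cDC1 and 5.54, 2.22, 3.61 and 4.59 in T cells. A single cell held 30.6% to 78.5% of the G2 and mitosis UMIs of a library's cDC1 and 39.4% to 71.4% of those of its T cells. The 4 libraries of T cells without shared barcodes had 10.7, 9.72, 11.2 and 7.76 UMIs per 10000 over the 36 genes, and those with them 149, 70.6, 188 and 89.6. The cDC1 of CV replicate 2 were highest with their shared barcodes (72.7 per 10000) and had 11.8 without them.

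**Figure D4:**
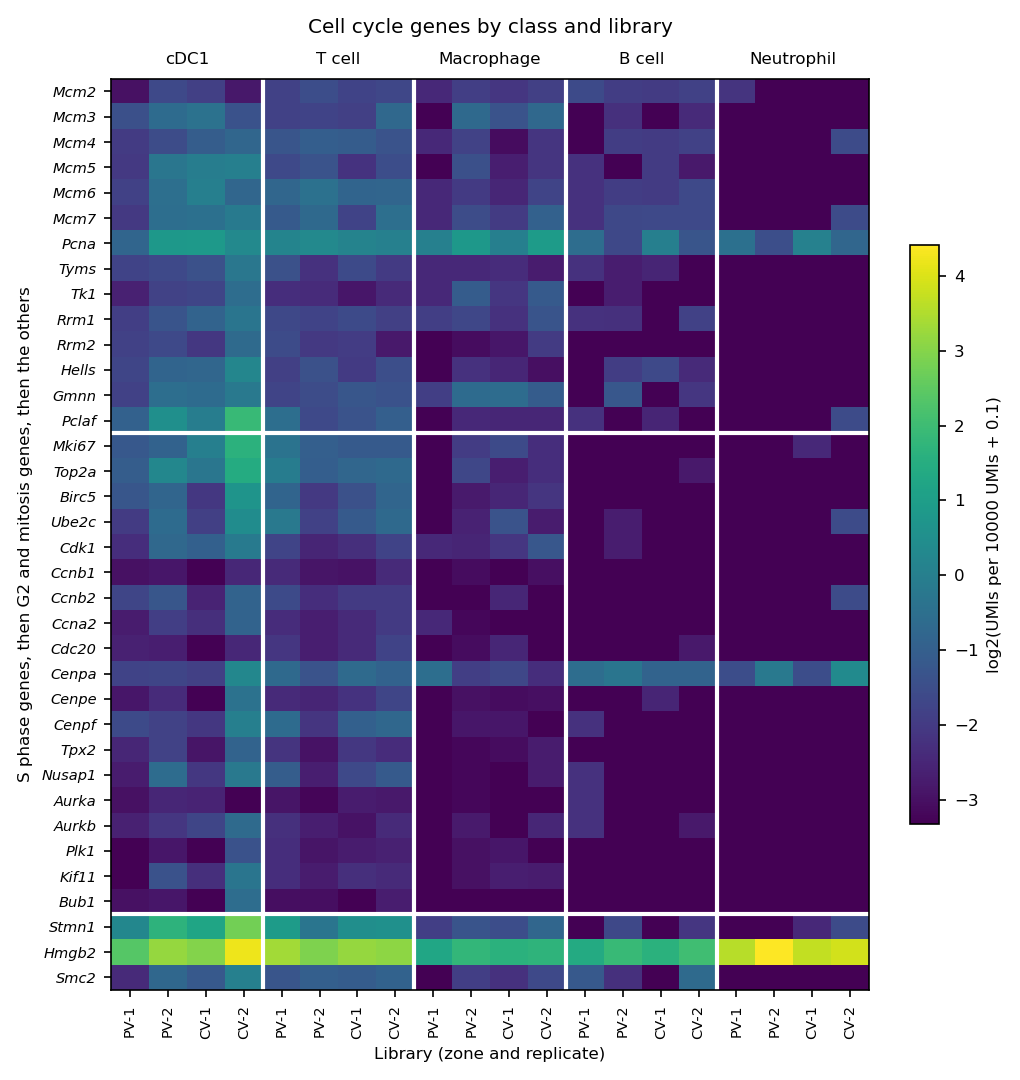
The heat map shows each of the 36 genes (vertical) in 5 classes and 4 libraries (horizontal) as log2 of UMIs per 10000 UMIs plus 0.1. Most mitosis genes are highest in cDC1 and T cells, and in the neutrophil columns Hmgb2, Cenpa and Pcna are the genes that stand out.

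Gene sums were compared between 5 classes, those with 10 cells or more in each of the 4 libraries, and the library was a block. Of the 36 genes, 20 had enough counts over the sums to enter the test; edgeR's quasi-likelihood test with Benjamini-Hochberg adjustment over 5661 genes was used. The filter asks for counts in some of the sums only, so a gene can enter through the classes where it is high. Birc5 had 163 UMIs in T cells and 91 in cDC1, but 0 in B cells and in neutrophils. How many of the tested genes were higher in cDC1 or T cells, or lower in neutrophils, thus partly follows from the filter. The contrast of a class with the mean of the others called 19 genes higher in cDC1, where 32.9% of all genes were higher, and 15 in T cells, where 35.7% were. It called Mcm3 and Gmnn, a licensing inhibitor, higher in macrophages, where 36.8% of genes were higher, and Cenpa and Hmgb2 lower, where 11.6% were lower. It called Pcna, Stmn1 and Hmgb2 lower in B cells, where 12% of genes were lower. Mcm3 had 0, 0.527, 0.291 and 0.507 UMIs per 10000 in macrophages, in the order of libraries above, and Gmnn 0.169, 0.545, 0.563 and 0.380. Both genes were thus lowest in the 17 macrophages of PV replicate 1. In neutrophils it called 7 lower (Mcm3, Mcm6, Mcm7, Hells, Gmnn, Stmn1 and Smc2), where 35.3% of genes were lower, and Hmgb2 higher, where 19.4% were higher. These 7 of the 20 tested were near the share of all genes. Mcm3, Mcm6, Hells, Gmnn and Smc2 had 0 UMIs in neutrophils and entered the test through other classes. Calls with the other classes as reference moved with single libraries, and so did the number of the 36 genes tested. It was 21 without PV replicate 1, 15 without PV replicate 2 or CV replicate 1, and 14 without CV replicate 2. Without CV replicate 2, 12 genes were higher in cDC1, and 1 gene was higher and 1 lower in B cells. Of the 19 genes called higher in cDC1, 13 were tested in that fit and 12 were called. Without PV replicate 2, 1 gene was higher and 1 lower in macrophages and 3 were lower in neutrophils; 4 were lower in neutrophils when either CV library was absent. In macrophages 4 were higher without PV replicate 1 and 1 was lower without CV replicate 2. Without shared barcodes 4 of the 36 genes were tested, and 1 was higher in cDC1 (Stmn1) and 0 in T cells. Classes with no UMI of a gene set no fold against the mean of the others, so folds are given only for cDC1 against T cells.

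Against T cells, 9 of the genes were higher in cDC1 and none was lower, where 24.4% of all genes were higher and 22.5% lower. The S phase genes among them were Pclaf, Mcm5, Hells, a chromatin remodeller, Gmnn and Mcm3; the others were Cdk1, Mki67, Top2a and Stmn1. Pclaf had 0.428, 1.35, 0.869 and 3.61 UMIs per 10000 in cDC1 and 0.598, 0.226, 0.295 and 0.408 in T cells, in the order of libraries above. Its log2 fold change was 1.90 ± 0.36 (SE; adjusted p = 7.15e-05 by edgeR). The cDC1 libraries were above the T cell libraries in 3 of 4, and PV replicate 1 was the exception.

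In mitosis genes, too, CV replicate 2 had the highest cDC1 value. Cdk1, the mitotic kinase, had 0.104, 0.515, 0.417 and 0.820 UMIs per 10000 in cDC1 and 0.199, 0.0728, 0.108 and 0.195 in T cells, a log2 fold change of 1.66 ± 0.44 (SE; adjusted p = 0.00314 by edgeR). Mki67, the classic proliferation antigen, had 0.337, 0.439, 0.903 and 3.03 in cDC1 and 0.664, 0.408, 0.354 and 0.355 in T cells, a log2 fold change of 1.13 ± 0.41 (SE; adjusted p = 0.0280 by edgeR). In both genes PV replicate 1 was the lowest cDC1 library, below its own T cells, and the other 3 were above theirs.

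Stmn1, which binds tubulin, had 1.09, 3.13, 2.22 and 6.76 UMIs per 10000 in cDC1 and 1.80, 0.706, 1.32 and 1.37 in T cells, a log2 fold change of 1.28 ± 0.31 (SE; adjusted p = 0.00125 by edgeR). Mcm5 (1.48 ± 0.40), Hells (1.32 ± 0.35), Gmnn (1.02 ± 0.31), Top2a (0.99 ± 0.36) and Mcm3 (0.97 ± 0.37) had log2 fold changes (± SE) with adjusted p between 0.00339 and 0.0340 by edgeR. Genes without a call included Birc5 at 0.83 ± 0.37, Cenpf at -0.11 ± 0.40 and Ube2c at 0.25 ± 0.46 (log2 fold change ± SE). Leaving out 1 library changed the count and the number tested. Of 21 genes tested 14 were higher when PV replicate 1 was absent, and of 15 tested 3 when PV replicate 2 was. When CV replicate 1 was absent 4 of 15 were higher, and when CV replicate 2 was absent 2 of 14 were higher and Cenpa was lower. Of the 9 genes called with all libraries, all 9 were tested without PV replicate 1 and 6 without each of the other libraries. Pclaf was higher in each of these 4 fits. DESeq2 also called 9 genes, of all 36 tested, but not Mcm3, Mki67 and Top2a. Of all 17341 genes it tested, 1946 were higher in cDC1. The median log2 fold change was 0.72 over the 20 genes tested and -0.01 over all genes. Without shared barcodes 4 of the 36 genes entered the test and Stmn1 alone was higher in cDC1 than in T cells, with a log2 fold change of 2.53 ± 0.43 (SE; adjusted p = 3.66e-06 by edgeR).

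Between zones, no difference in the 36 genes passed a test. In sums over all cells, 35 of the 36 genes (all but Aurka) were among 10502 genes tested, and 0 genes were called by edgeR (0% of all); at an unadjusted p under 0.05 there were 230 genes and none of the 36, and DESeq2 called 9 genes, none of the 36. Without PV replicate 1 edgeR called 21 genes and without PV replicate 2 it called 229, none of them among the 36. In sums over T cells, 33 of the 36 were among 7914 genes tested and 0 genes were called by edgeR (0%) and 0 by DESeq2; 224 had an unadjusted p under 0.05, among them Cenpe, a centromere motor. Cenpe had 0.0886, 0.0728, 0.118 and 0.204 UMIs per 10000 in T cells, in that order of libraries, a log2 fold change of -1.05 ± 0.44 (SE; adjusted p = 0.999 by edgeR). These values rest on 12, 10, 12 and 23 UMIs, held by 4, 1, 2 and 4 T cells. The next smallest p were those of Mcm3 (-0.92 ± 0.44), Mki67 (0.55 ± 0.27), Rrm2 (0.93 ± 0.51) and Gmnn (-0.48 ± 0.27), all log2 fold changes with SE and with adjusted p = 0.999 by edgeR.

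The zone values of mitosis genes in T cells turned on single PV libraries. Without PV replicate 1, Cenpf (-1.84 ± 0.40) and the spindle gene Nusap1 (-2.34 ± 0.50) were lower in PV (log2 fold change ± SE; adjusted p = 0.0428 each by edgeR), and 14 genes were called in all. Without PV replicate 2, the 2 values turned to 0.21 and 0.33, and 9 genes were called, none of the 36. Without CV replicate 1, 1 gene was called, and it was none of the 36. Cenpf had 75, 18, 43 and 56 UMIs in T cells, in that order of libraries, and a single cell held 39.4% to 71.4% of the G2 and mitosis UMIs of the T cells in each library. The median log2 fold change of the genes tested among the 36 was -0.079 over all cells and -0.0014 over T cells, against 0.0089 and -0.0045 over all genes tested.

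**Figure D5:**
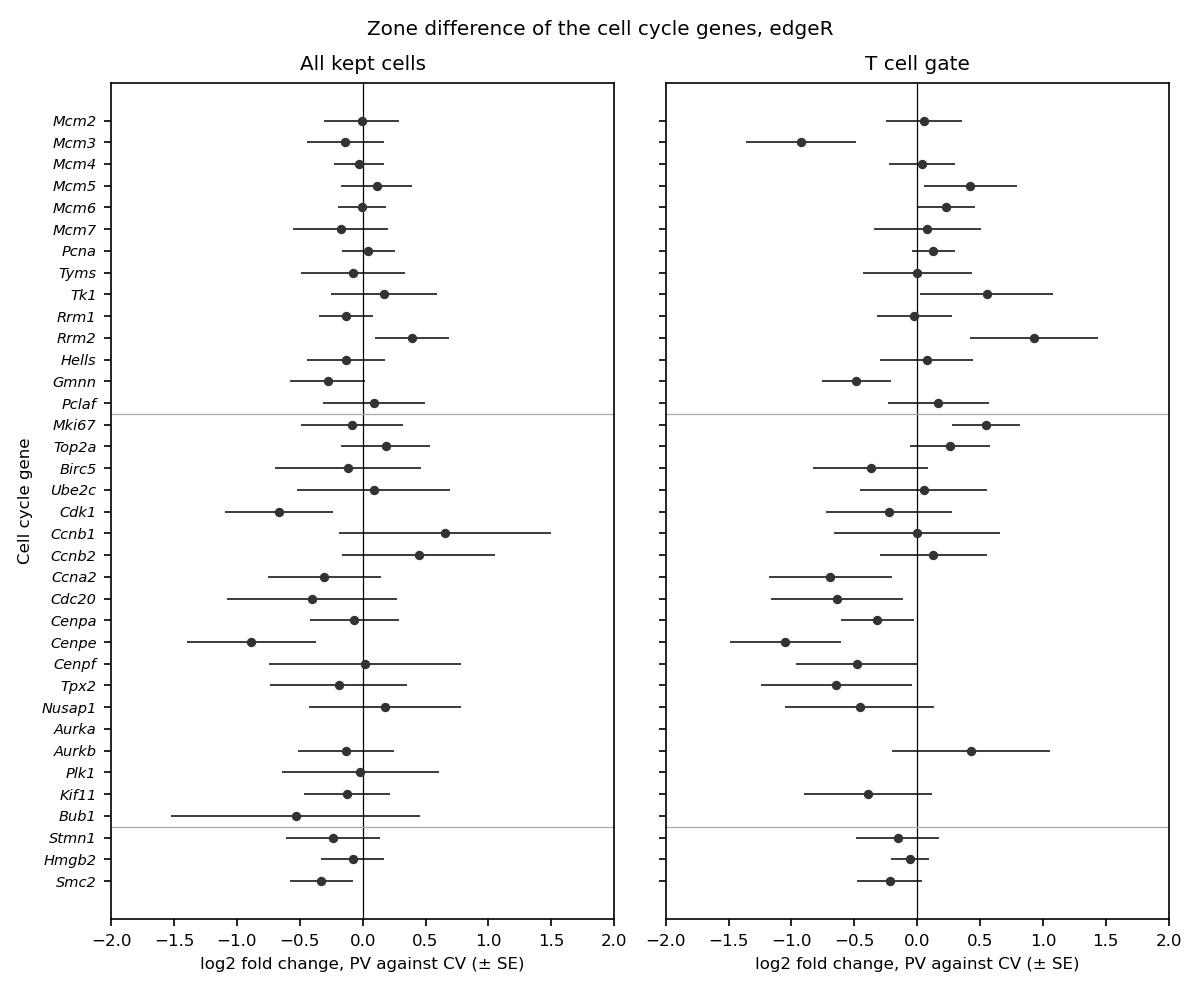
The plot gives each gene's log2 fold change, PV against CV, in sums over all cells and over T cells, with its standard error; genes not tested have no point. The values scatter around 0 in both panels, and none passed the test.

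For shares of cells with several of the genes, 2 libraries in each zone allow no exact p below 0.333. In T cells the share with 5 or more was 11.2% in PV and 9.495% in CV, a difference of 1.69 points (exact permutation p = 0.333, two-sided, 0.583 after adjustment over 7 classes). In cDC1 it was 37.9% in PV and 48.3% in CV, a difference of -10.4 points (exact permutation p = 0.333, 0.583 adjusted). Both PV libraries were above both CV libraries in T cells and below them in cDC1; even so, the design allows no smaller p. In macrophages it was 12.3% and 17.9%, a difference of -5.60 points (exact permutation p = 0.667, 0.778 adjusted), and the zones overlapped. The cDC1 difference changed sign, to 13.7 points, with each shared barcode kept in every library that held it. With all shared barcodes left out the difference stayed negative, at -12.0 points, but the zones overlapped. In T cells it was 0.406 and 1.76 points under these 2 choices, and in macrophages 1.36 with shared barcodes left out. The S phase genes together had 2.83 and 7.97 UMIs per 10000 in cDC1 of the PV libraries and 8.34 and 12.2 in those of the CV libraries. These sums did not overlap between the zones, but without shared barcodes they were 3.19, 6.64, 1.94 and 5.77 and did overlap. With the kept cells, other sums did not overlap either. They were the S phase sums of neutrophils and of NK cells or ILC1, and the G2 and mitosis sums of macrophages and B cells. Their directions differed, as CV was higher in macrophages and neutrophils and PV in B cells and NK cells or ILC1. In T cells the S phase sums were 4.59, 4.77, 3.95 and 4.71 and overlapped. At 3 or more G2 and mitosis genes, the shares in PV and CV were 0.373% and 3.53% in macrophages and 16.9% and 30% in cDC1. The zones did not overlap in either class (exact permutation p = 0.333, 0.556 adjusted, in each).

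Further genes of the same pathways were described beside the 36. In the 24 cDC1, 22 T cells and 10 macrophages with 10 or more of the 36 genes, 32, 31 and 32 of 32 other replication genes had a higher level per 10000 UMIs than in the cells with under 5, and of 44 other mitosis genes 44, 44 and 39 did. These are descriptions, as the cells were chosen on related genes, and the genes named here and in the next paragraph were picked after their values were seen. E2f1, the transcription factor of the replication program, had a UMI in 12 of the 22 T cells against 3 of 652 with under 5 genes, and Foxm1, a factor of mitosis genes, in 7 of 22 against 2 of 652. Cdk4, a kinase of G1, had 1.18 UMIs per 10000 against 0.249 in cDC1 and 2.11 against 0.805 in T cells.

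Some genes tied to arrest had lower levels in the cells with 10 or more genes. Btg1, an antiproliferative gene, had 6.56 UMIs per 10000 in these T cells against 17.9 in those with under 5 genes, and 4.80 against 7.55 in cDC1 and 5.42 against 9.37 in macrophages. Btg2, its relative, had 1.44 against 4.74 in T cells, 1.93 against 4.90 in cDC1 and 0.856 against 4.32 in macrophages. Klf2, a gene of resting T cells, had 0.516 against 2.68 in T cells. The list of 15 arrest genes was not lower as a whole: 9 of 15 were lower in T cells, 7 of 15 in cDC1 and 8 of 15 in macrophages. Ccnd2, a D-type cyclin of lymphocytes, had 4.02 against 6.55 per 10000 in T cells.

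In the same class contrasts, other replication and mitosis genes were called in several classes; the shares of all genes called higher were 32.9% in cDC1, 35.7% in T cells, 24.6% in B cells, 36.8% in macrophages and 19.4% in neutrophils, and lower 14.6%, 16.2%, 12%, 11.6% and 35.3%. Of 32 other replication genes 8 were tested, and 6 were higher in cDC1, 5 in T cells, 3 in B cells and 1 in macrophages, while 8 were lower in neutrophils. How many were called partly follows from the same filter. Of 44 other mitosis genes 9 were tested, and 5 were higher in cDC1 and 6 in T cells, with 2 lower in T cells. Neutrophils had 4 of these 9 higher (Lmnb1, a nuclear lamin gene, Cks2, Hmgn2 and Kif23) and 4 lower, B cells 4 lower, and macrophages 1 higher and 3 lower. Against T cells, 1 of the 8 replication genes and 4 of the 9 mitosis genes were higher in cDC1, and none was lower. Of all genes 24.4% were higher there. The replication gene was Ezh2 (log2 fold change 1.64 ± 0.29 SE; adjusted p = 3.43e-05 by edgeR), a chromatin methyltransferase. The mitosis genes included Kif23 (2.86 ± 0.43; 3.96e-06 by edgeR), a motor of cytokinesis. Among cells with under 5 genes, Kif23 had a UMI in 23 of 54 cDC1 and 4 of 652 T cells. Ezh2 had a UMI in 22 of 54 and 37 of 652. T cells were the shallower class, and how far these calls follow dividing cells was not tested. Of 15 genes of the G1 and E2F program 6 were tested, and 2 were higher and 1 lower in cDC1, near the share of all genes, and 4 were higher in T cells. The D-type cyclins parted by class: Ccnd1 was higher in cDC1 (7.49 ± 0.38; 7.68e-14) and Ccnd2 (-3.72 ± 0.29; 4.01e-11) and Ccnd3 (-1.65 ± 0.23; 1.34e-06) were higher in T cells by edgeR. Of 15 arrest genes 11 were tested, and 6 were lower and none higher in cDC1, among them Btg1 and Foxp1, while 7 were higher in B cells and 7 in neutrophils. Between zones, none of these 4 lists had a called gene in all cells or in T cells by edgeR. The smallest unadjusted p in T cells were those of Btg1 (log2 fold change -0.42 ± 0.17 SE) and Myc (-0.57 ± 0.24), with adjusted p = 0.999 by edgeR.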

How the data were processed

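Each of the 4 libraries was deposited by the authors as raw UMI counts per gene and barcode (the tool Cell Ranger 4.0.0 with the build mm10, per the submitters' processing notes). How cells were called is not stated there. Deposited barcodes had at least 500 UMIs. Identifiers were matched to symbols for 32158 of 32285 genes with GENCODE vM21 names. Cells were kept with at least 200 genes and at most 10% mitochondrial UMIs, and a barcode found in several libraries only where at least 70% of its UMIs lay. A cell was gated to the class with the most of 8 markers detected, if at least 3 and more than in any other of 14 classes. Doublets were called with scanpy 1.11.5 (Scrublet, expected rate 3%; 2, 7, 3 and 1 cells in PV replicates 1 and 2 and CV replicates 1 and 2) and kept, except in an alternative.

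Counts of genes per cell were also made after thinning each cell to 2000 UMIs, leaving out shallower cells. UMI counts summed per library, or per library and class, were tested with edgeR 4.0.16 in R 4.3.3 (TMM, filterByExpr, quasi-likelihood test, adjusted p under 0.05), and with DESeq2 1.42.0 as an alternative; zones were tested for all cells and for T cells, the class with at least 20 cells in every library. Shares have exact Clopper-Pearson 95% intervals. The tests were also run on simulated counts, with a common dispersion and gene means shared by all classes apart from set changes. Such counts lack the empty classes and the single-cell weight of these sums, so they do not show how the tests behave here. The 36 genes, the marker and pathway lists and the limits were chosen with earlier results of these data known; leaving out all shared barcodes and the contrast of cDC1 with T cells were added after these data were seen. Named genes were those of the 36, and of the other lists up to 4 with the smallest p in a contrast. Promoters are RefSeq sequences on GRCm38.p6.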

Additional observations from a re-analysis of the deposited data

Results flagged for a closer look

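T cells and cDC1 had zone differences of opposite sign in the share of cells holding several of the 36 genes, with each PV library on the other side of both CV libraries. For 5 or more genes the PV minus CV difference was 1.69 points in T cells and -10.4 points in cDC1. For 10 or more genes it was 1.02 points in T cells and -13.2 points in cDC1. With shared barcodes kept in every library that held them, both differences for 5 or more genes were positive, 0.406 points in T cells and 13.7 in cDC1. With all of them left out, the cDC1 shares were 7.14% and 38.9% in PV and 20% and 50% in CV. The cDC1 sign thus turned under the first choice and stayed negative under the second, where the zones overlapped. Whether these differences differ was not tested.

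Entries of shared barcodes that were removed from a library also held many of the genes: 62 of 704 held 10 or more of the 36, in a median of 1854.5 UMIs. Of these, 49 carried the barcode of a kept cell with 10 or more genes, and 13 belonged to barcodes kept in no library. Among ungated cells, which entered no class comparison, 3 of 70 held 10 or more genes, with 10, 27 and 35 of them; 1 of the 3 was called a doublet.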

How the results depend on the processing

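The shares depend on the limit, on depth and on shared barcodes. The mean share of cells with 5 or more of the genes was 12.4% in all cells, 10.3% in T cells, 43.1% in cDC1, 15.1% in macrophages and 2.30% in B cells. At 3 or more genes these shares were 40.7%, 44.4%, 69.96%, 39.1% and 20.2%, and at 10 or more 3.998%, 2.97%, 30.1%, 3.21% and 0%. After thinning they were 3.43%, 3.06%, 21.8%, 2.20% and 0%. With shared barcodes kept in every library they were 15.1% in T cells, 32.2% in cDC1 and 8.31% in macrophages, and with all of them left out 7.71% in all cells, 8.12% in T cells, 29.0% in cDC1 and 8.21% in macrophages. The PV minus CV difference was 6.20 points in all cells and 6.63 in T cells at 3 or more genes, 0.481 in T cells after thinning, 0.406 in T cells and 13.7 in cDC1 with shared barcodes kept, and 1.36 in macrophages with them left out. The cause of each change was not tested.

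Zone tests called 9 genes with DESeq2 and 151 without the low-count filter over all cells, and 4 with shared barcodes left out over T cells; none of these was among the 36. Replicate numbers were added as a block: over T cells 1 gene was called with the replicate block and over all cells 0, none of the 36. The deviations of libraries with the same number correlated at -0.034 over all cells and 0.126 over T cells, and the labels do not say that a number marks a shared animal or day.

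Of the class calls, DESeq2 tested all 36 genes and gave 8 lower in B cells and 29 higher in cDC1. Of all 17341 genes it tested, 792 were lower in B cells and 2361 higher in cDC1. Without the low-count filter all 36 were tested too. Then 5 were lower in B cells, 4 higher in macrophages, 11 lower in neutrophils, 30 higher in T cells, 30 higher in cDC1 and 15 higher in cDC1 than in T cells. Of all 17341 genes, 757, 3333, 2787, 3908, 3023 and 1987 were called, in the same order. With shared barcodes kept 4 of 22 tested were higher in macrophages, where 2427 of 6329 genes were. With them left out 4 of the 36 genes were tested: 1 was higher in B cells, 1 in macrophages, 0 in T cells, 1 in cDC1 and 1 in cDC1 than in T cells, and 0 were lower in neutrophils. Stmn1 then turned to -0.064 in T cells (log2 fold change against the other classes), and Hmgb2 to -0.036 in cDC1 and -0.23 in cDC1 against T cells. Leaving out a library turned genes without a call in cDC1 against T cells: Hmgb2 ranged from -0.12 (CV replicate 2 absent) to 0.56, Cenpf from -0.25 to 0.27 (positive with PV replicate 1 or CV replicate 1 absent) and Ube2c from -0.22 (either replicate 2 absent) to 1.06. Between zones in T cells, Cenpf ranged from -1.84 to 0.21 and Nusap1 from -2.34 to 0.33, with the lowest values without PV replicate 1 and the highest without PV replicate 2.

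Leaving out 1 library at a time, the share with 5 or more genes ranged from 11.5% to 12.99% in all cells, 9.85% to 10.9% in T cells, 40.9% to 47.6% in cDC1, 13.6% to 18.1% in macrophages, 1.32% to 3.07% in B cells and 0% to 2.22% in neutrophils. The zone difference ranged from -0.525 to 3.60 points in all cells, 0.947 to 2.44 in T cells, -18.6 to -2.18 in cDC1 and -12.0 to 0.792 in macrophages. Zone calls ranged from 0 to 229 genes over all cells and 0 to 14 over T cells, with 0 to 2 of the 36 in T cells. Class calls among the 36 ranged from 0 to 1 higher and 1 to 4 lower in B cells, 1 to 4 higher and 1 to 2 lower in macrophages, 3 to 7 lower in neutrophils, 10 to 13 higher in T cells, 12 to 20 higher in cDC1, and 2 to 14 higher and 0 to 1 lower in cDC1 against T cells. These class fits tested 14 to 21 of the 36 genes, so part of each range follows from which genes were tested. The number of cells limits the cDC1 values, with 12 to 37 in a library, and 2 libraries in each zone limit the zone tests.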
